A study of Mus musculus with 8 samples.

Results

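The sarcolemma, the surface membrane of a skeletal muscle fibre, fires and resets through a small set of ion channels, and the data here describe 7 genes that encode them in the soleus of mice with a mutant dynamin 2. The genes are Scn4a, Scn4b, Clcn1, Kcnn3, Kcnj2, Kcnj11 and Kcnj12, chosen by symbol among the 22880 gene identifiers counted in every mouse, and all 7 were found and tested. RNA was sequenced from the soleus, a postural calf muscle of slow and fast fibres, of 4 control mice (Dnm2 +/+) and 4 Dnm2 wt/K562E mice (Dnm2 +/K562E), all males of a C57BL/6 background (the J substrain, per the study's methods) aged 2 months. The mutant mice carry 1 wild-type and 1 K562E allele of Dnm2, a membrane-scission GTPase. The point mutation is in the germline and so in every cell of the animal, and RNA came from whole muscle, in which markers of Schwann cells, vessels and connective tissue were also detected. Each mouse gave 1 library, with total counts of 36384212, 36537889, 48832814 and 35412828 in controls 1 to 4 and of 33407430, 39015663, 39460486 and 35702196 in Dnm2 wt/K562E mice 1 to 4. The unit of all levels is normalized CPM, that is counts divided by the library size after its correction by the TMM method of edgeR, and groups are summarized as mean ± SD over 4 mice.

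The muscle action potential begins when voltage-gated sodium channels open, and it is ended by potassium currents together with a large resting chloride conductance that keeps the membrane stable between impulses. Inward rectifier potassium channels hold the resting potential, and ATP-sensitive potassium channels open when the energy supply of the fibre falls. Small-conductance calcium-activated potassium channels are scarce in innervated adult muscle and are known from developing and denervated fibres. Loss of chloride conductance gives myotonia, and mutations in the sodium and inward rectifier channels give periodic paralyses.

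In Dnm2 wt/K562E soleus, 4 of the 7 genes fell and 1 rose, where a gene was called if its adjusted p was under 0.05 and its log2 fold change over controls (log2FC) was 0.58 or more in size. Both come from the quasi-likelihood test of edgeR, with Benjamini-Hochberg adjustment over 14001 genes, and this is the test of every adjusted p below unless another is named. Scn4a, Clcn1, Kcnj12 and Scn4b were lower, Kcnn3 was higher, and Kcnj2 and Kcnj11 did not pass. The lower genes were 57.1% of the members, where 7.85% of all tested genes were called lower, and the higher gene was 14.3%, where 12.9% of all tested genes were called higher. In 5 of the 7 genes, the same that were called, no mouse of either genotype overlapped the range of the other, which over all tested genes held for 20.5% in the lower and 20.6% in the higher direction. The median log2FC of the 7 genes was -0.64, against 0.0074 over all tested genes. These genes were chosen with earlier results of the same mice known, so the shares are descriptions. In whole muscle, fewer fibres and less RNA per fibre cannot be told apart.

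**Figure D1:**
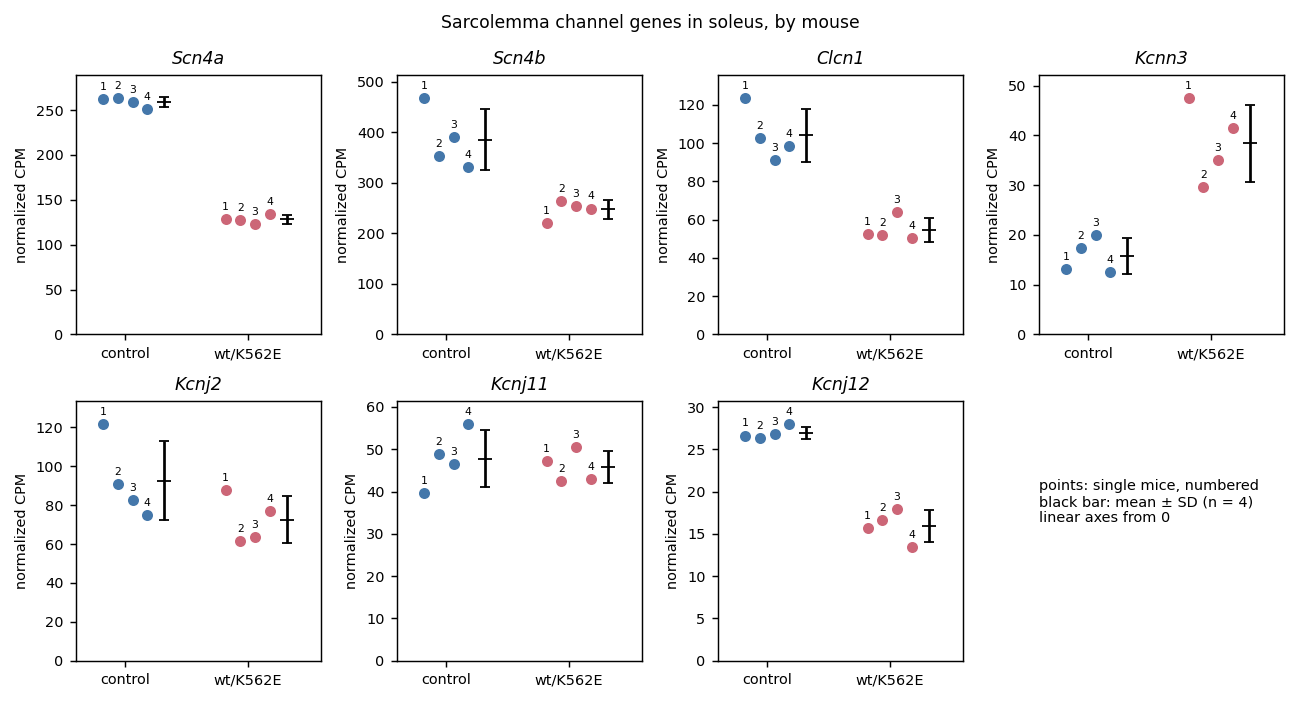
Normalized CPM of the 7 channel genes, with 1 panel per gene, 1 numbered point per mouse and a black bar for the mean ± SD of 4 mice, on linear axes from 0. Controls and Dnm2 wt/K562E mice lie apart for Scn4a, Scn4b, Clcn1, Kcnn3 and Kcnj12 and overlap for Kcnj2 and Kcnj11.

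Clcn1 and Kcnn3 moved in opposite directions, and the 250 bases before their starts are shown because these are the genes of the largest fall and rise whose start is at the same base in RefSeq and GENCODE, leaving aside Scn4a, whose starts differ. The sequences are those of RefSeq on GRCm38.p6, on the plus strand, at chr6:42286435-42286684 for Clcn1 and chr3:89519914-89520163 for Kcnn3. Capitals mark the E-box CANNTG, the recognition sequence of myogenic basic helix-loop-helix factors such as Myog, and a MEF2-type box CTANNNNTAG, a form of the A/T-rich sequence bound by MEF2 factors.
Clcn1: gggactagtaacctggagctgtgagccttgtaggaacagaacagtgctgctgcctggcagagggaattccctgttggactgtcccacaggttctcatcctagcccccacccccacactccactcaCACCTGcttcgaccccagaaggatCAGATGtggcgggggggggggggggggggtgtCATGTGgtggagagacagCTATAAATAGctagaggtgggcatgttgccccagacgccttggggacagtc
Kcnn3: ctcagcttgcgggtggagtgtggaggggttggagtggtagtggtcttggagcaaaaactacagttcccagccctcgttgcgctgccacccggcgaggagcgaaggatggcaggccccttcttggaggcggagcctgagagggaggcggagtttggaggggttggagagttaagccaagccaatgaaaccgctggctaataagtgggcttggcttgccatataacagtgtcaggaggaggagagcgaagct
Clcn1 holds 3 E-boxes, beginning 125, 101 and 69 bases before the start, and 1 MEF2-type box beginning 51 bases before it, and the boxes do not overlap. Neither motif is in the Kcnn3 window. Both motifs read the same on both strands. Of 32544 RefSeq promoter windows of 300 bases, from 250 before to 50 after the start, 72.3% hold an E-box and 3.7% the MEF2-type box. In such windows of the other genes, Kcnj2 and Kcnj12 hold 2 E-boxes each, Scn4a and Scn4b hold none, and Clcn1 alone among the 6 genes with a window holds a MEF2-type box. Kcnj11 has no entry. The windows of Scn4a, Scn4b and Kcnj12 lie at RefSeq starts that differ from the gene starts of GENCODE, and which start soleus uses was not tested. The E-box CAGATG of Kcnj12 lies after the start.

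Scn4a (ENSMUSG00000001027, GRCm38 chr11:106318592-106353288, minus strand) encodes the pore-forming subunit of the adult muscle sodium channel, which carries the upstroke of the action potential. Its normalized CPM was 262.8, 263.3, 259.4 and 250.8 in controls 1 to 4 and 128.9, 127.8, 122.7 and 134.8 in Dnm2 wt/K562E mice 1 to 4. The mice of a genotype were nearly alike, and the highest mutant mouse lay far below the lowest control. The mean fell from 259.1 ± 5.78 to 128.5 ± 4.93 (SD, n = 4 each), a 2.02-fold lower level, with a log2FC of -1.01 (SE 0.053, adjusted p = 5.98e-07, edgeR quasi-likelihood test). Of all 7 genes it had the smallest p-value.

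Scn4b (ENSMUSG00000046480, chr9:45138395-45154152, plus strand) encodes a beta subunit, a single-pass membrane protein that joins the sodium channel and shapes its gating. It was at 467.9, 353.1, 391.2 and 331.2 normalized CPM in controls 1 to 4 and at 220.8, 264.7, 254.9 and 249.4 in Dnm2 wt/K562E mice 1 to 4. Control 1 was the highest and lay well above the other controls, and even so every mutant mouse was below every control. The log2FC was -0.64 (SE 0.104, adjusted p = 5.78e-04, same test), from 385.8 ± 60.0 to 247.4 ± 18.8 (SD, n = 4 each). Without control 1 it was -0.54, short of the fold threshold (adjusted p = 3.33e-04), and scaled by library size alone it was -0.43 (adjusted p = 0.00445).

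Clcn1 (ENSMUSG00000029862, chr6:42286685-42315756, plus strand) encodes the chloride channel that gives muscle most of its resting conductance. Controls 1 to 4 had 123.4, 102.6, 91.2 and 98.6 normalized CPM and Dnm2 wt/K562E mice 1 to 4 had 52.4, 51.9, 64.0 and 50.6. Control 1 was again the highest, mutant mouse 3 stood above the other mutants, and the genotypes did not overlap. The level fell from 104.0 ± 13.8 to 54.7 ± 6.23 (SD, n = 4 each), a log2FC of -0.93 (SE 0.104, adjusted p = 5.11e-05, same test). Over 8.2% of its exon length Clcn1 overlaps Fam131b on the other strand, and since the use of strand in the counting is not stated, reads there could belong to either gene. The other 6 genes have no exon overlap with another gene and share under 1% of their 31-base stretches with other transcripts.

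Kcnn3 (ENSMUSG00000000794, chr3:89520164-89675132, plus strand) encodes a small-conductance calcium-activated potassium channel, whose current follows the action potential. It was low in controls 1 to 4, at 13.1, 17.3, 20.02 and 12.5 normalized CPM, and stood at 47.5, 29.6, 35.1 and 41.6 in Dnm2 wt/K562E mice 1 to 4. Mutant mouse 2, the lowest of its group, was above the highest control. The level rose 2.44-fold, from 15.7 ± 3.57 to 38.4 ± 7.77 (SD, n = 4 each), with a log2FC of 1.29 (SE 0.175, adjusted p = 1.78e-04, same test).

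Kcnj2 (ENSMUSG00000041695, chr11:111066164-111076821, plus strand) and Kcnj12 (ENSMUSG00000042529, chr11:61022564-61071131, plus strand) encode the strong inward rectifiers that set the resting potential and can join in shared tetramers. Kcnj2 was at 121.6, 91.1, 82.6 and 75.04 normalized CPM in controls 1 to 4 and at 87.7, 61.8, 63.6 and 76.8 in Dnm2 wt/K562E mice 1 to 4. Mutant mice 1 and 4 lay within the control range, and the log2FC of -0.35 (SE 0.153, 95% confidence interval -0.69 to -0.02) did not pass after adjustment (adjusted p = 0.0831). Without control 1, the highest mouse, it was -0.20, with library size alone -0.14 and with 7 skeletal muscle genes setting the scale -0.0058. The adjusted p was 0.0486 with DESeq2, 0.0329 without control 4 and 0.0423 without mutant mouse 1, and the log2FC stayed under the fold threshold there. Kcnj12 was at 26.6, 26.3, 26.8 and 27.9 in controls 1 to 4 and at 15.7, 16.6, 17.9 and 13.5 in Dnm2 wt/K562E mice 1 to 4. The controls were close together, and all mutant mice lay below them. The log2FC of Kcnj12 was -0.75 (SE 0.088, adjusted p = 6.53e-05, edgeR quasi-likelihood test), and with library size alone it was -0.54, short of the fold threshold.

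Kcnj11 (ENSMUSG00000096146, chr7:46093953-46100764, minus strand) encodes the pore of the ATP-sensitive potassium channel. Controls 1 to 4 had 39.5, 49.0, 46.6 and 55.8 normalized CPM and Dnm2 wt/K562E mice 1 to 4 had 47.2, 42.4, 50.4 and 42.9, with every mutant mouse inside the control range. The log2FC was -0.06 (SE 0.102, 95% confidence interval -0.29 to 0.16, adjusted p = 0.651), and it turned to 0.15 with library size alone and to 0.01 without control 4.

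Per kilobase of exon, the order of the 7 genes in controls was Scn4b, Scn4a, Clcn1, Kcnj2, Kcnj11, Kcnj12 and Kcnn3, at 77.5 ± 12.1, 36.8 ± 0.82, 19.2 ± 2.54, 17.0 ± 3.75, 12.98 ± 1.83, 9.78 ± 0.26 and 1.51 ± 0.34 normalized CPM per kilobase (SD, n = 4). Among neighbours in this order, Clcn1 with Kcnj2 and Kcnj2 with Kcnj11 overlapped between mice, and the other neighbours did not. In Dnm2 wt/K562E mice Clcn1 stood at the fifth place, at 10.1 ± 1.148, below Kcnj2 at 13.3 ± 2.23 and Kcnj11 at 12.4 ± 1.04. Scn4b at 49.7 ± 3.78 and Scn4a at 18.3 ± 0.70 stayed first and second, and Kcnn3 at 3.68 ± 0.74 stayed below Kcnj12 at 5.80 ± 0.68. The mutant ranges of Clcn1 (9.33 to 11.8), Kcnj2 (11.4 to 16.1) and Kcnj11 (11.5 to 13.7) overlapped one another, and the other neighbours did not overlap.

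The 117 other channel, pump, anchor and splicing genes listed, some of inner membranes or the nucleus, were grouped in 11 lists, of which 89 genes were tested and 28 had too few counts. Of the 89, 14 (15.7%) were called higher and 12 (13.5%) lower, where the shares over all tested genes were 12.9% and 7.85%, with a median log2FC of 0.07. Scaled by library size alone, 25 were called higher and 7 lower, and with 7 skeletal muscle genes setting the scale 29 and 6. By adjusted p alone 19 were higher and 22 lower, where the shares over all tested genes were 22.2% and 21.7%.

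**Figure D2:**
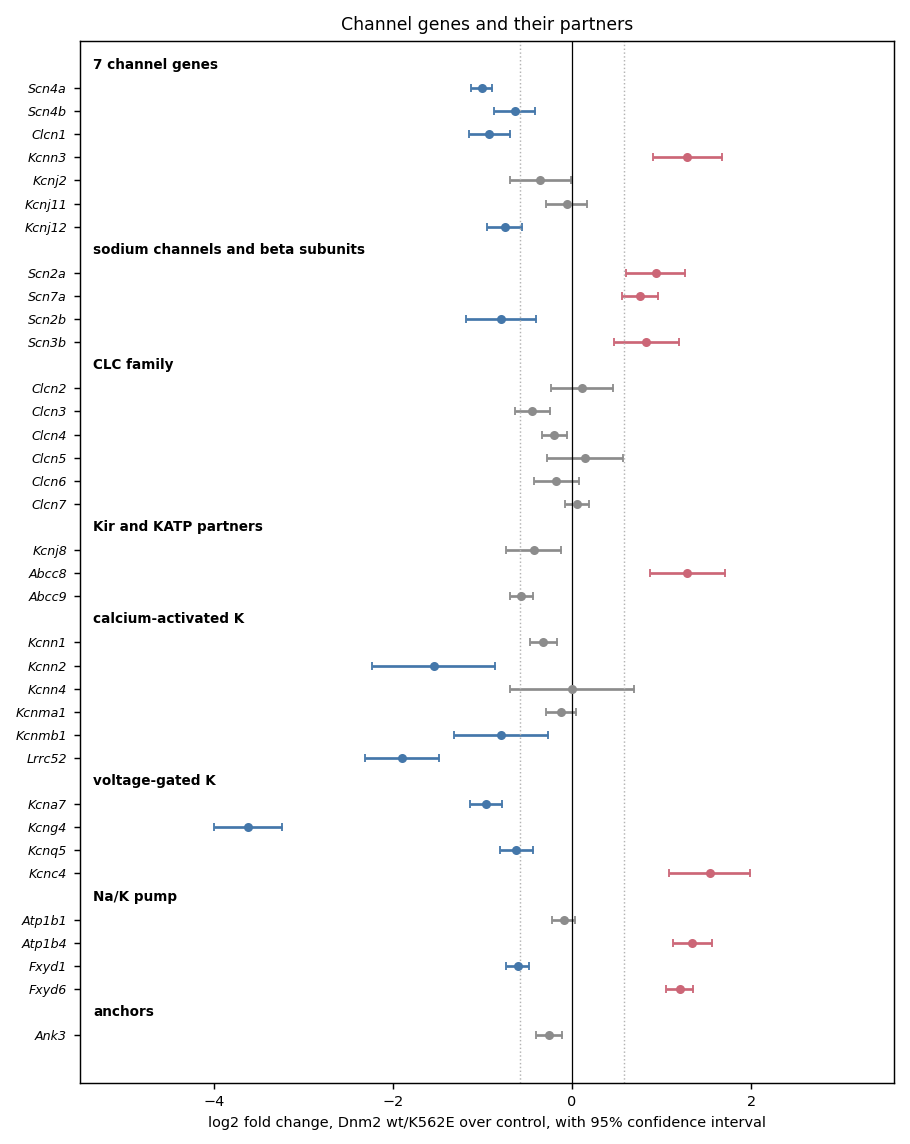
Log2 fold change of Dnm2 wt/K562E over control soleus with its 95% confidence interval, for the 7 channel genes and for other channel, pump and anchor genes grouped by family. Red genes were called higher, blue genes lower and grey genes neither, and the dotted lines stand at the fold threshold of 0.58 in either direction. Among the genes plotted, Kcng4 lies farthest to the left. Kcnc4 lies far to the right, at 1.54, and among the voltage-gated potassium channels tested Kcnf1 had a larger value of 1.58.

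Among the other pore-forming sodium channels, 4 of 8 listed genes were tested, 2 were called higher and 0 lower, against 12.9% and 7.85% over all tested genes. The 4 not tested had at most 7 counts in any mouse. Scn7a, an atypical sodium channel that responds to sodium concentration, rose from 18.1 ± 1.38 to 30.6 ± 3.29, and Scn2a, a neuronal channel that shares 9.17% of its 31-base stretches mostly with its relatives, from 9.60 ± 1.92 to 18.3 ± 2.64 (SD, n = 4 each).

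Among the partners of the sodium channels, Scn3b was called higher (log2FC 0.83, adjusted p = 0.00205) and Scn2b lower (-0.80, adjusted p = 0.00400), the latter not when 7 skeletal muscle genes set the scale (-0.45, adjusted p = 0.0570). Fgf13, an intracellular partner with the highest normalized CPM of the 4 tested genes, was at 24.0 ± 1.29 normalized CPM in controls and 23.5 ± 2.25 in Dnm2 wt/K562E mice (log2FC -0.04, adjusted p = 0.757), and its log2FC was 0.18 with library size alone and 0.02 without mutant mouse 3.

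None of the 8 tested genes among the other chloride channels and their partners was called, against 12.9% higher and 7.85% lower over all tested genes. Clcn3 and Clcn4, exchangers of inner membranes, and Ostm1, the partner of the lysosomal exchanger, passed the adjusted p alone and were looked up after their values were seen. Clcn3 had a log2FC of -0.45 (adjusted p = 0.00196), which was -0.24 with library size alone and -0.09 (adjusted p = 0.461) with 7 skeletal muscle genes setting the scale. Ostm1 had one of 0.39 (adjusted p = 0.00544), and Ostm1 was called higher with library size alone (0.60) and with 7 skeletal muscle genes setting the scale (0.73). That of Clcn4 was -0.20 (adjusted p = 0.0248), turned to 0.01 with library size alone, and Clcn4 overlaps an antisense gene over 11.5% of its exon length. Of the 5 splicing factors known to act on Clcn1 transcripts, the Mbnl and Celf genes, 0 were called, and the median log2FC was -0.08. Celf2, named after its values were seen, passed the adjusted p alone (log2FC 0.32, adjusted p = 0.0241) and was called higher with 7 skeletal muscle genes setting the scale (0.67).

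The other inward rectifiers had no called gene among 6 tested, against 12.9% higher and 7.85% lower over all tested genes. Kcnj8, the vascular pore of ATP-sensitive channels, was at 47.3, 43.3, 44.1 and 40.8 normalized CPM in controls 1 to 4 and at 23.7, 39.4, 37.7 and 29.3 in Dnm2 wt/K562E mice 1 to 4. All mutant mice were below all controls, with mutant mice 1 and 4 lowest, but the log2FC of -0.43 (adjusted p = 0.0275) was under the fold threshold. It was -0.22 with library size alone and -0.0985 with 7 skeletal muscle genes setting the scale (adjusted p = 0.515), and leaving out 1 mouse gave -0.54 to -0.31 (adjusted p up to 0.0740). Abcc9, the sulfonylurea receptor that accompanies Kcnj11 in muscle, was at 317.6 ± 17.8 in controls and 214.1 ± 5.28 in Dnm2 wt/K562E mice without overlap. Its log2FC of -0.57 (adjusted p = 2.51e-05) was just under the threshold, which it passed without control 1 (-0.59) or without control 4 (-0.60), while it was -0.36 with library size alone and -0.22 with 7 skeletal muscle genes setting the scale. Abcc8, the receptor of pancreatic beta cells, rose from 1.53 ± 0.32 to 3.76 ± 0.35 (log2FC 1.29, adjusted p = 3.21e-04) and remained low per kilobase, at 0.46 normalized CPM against 25.6 for Abcc9.

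Of the other calcium-activated potassium channels 8 of 9 were tested, and 3 were called lower and 0 higher, against 7.85% lower and 12.9% higher over all tested genes. Kcnmb2, a beta subunit of large-conductance channels named after its values were seen, was at 0.41 ± 0.33 normalized CPM in controls and 0.95 ± 0.20 in Dnm2 wt/K562E mice, which overlapped, with a log2FC of 1.23 (adjusted p = 0.0585). It was called higher by the exact test of edgeR (adjusted p = 0.0283), by DESeq2 (0.0374), with library size alone (0.0288) and without control 1 (0.00324). Kcnn2, a close relative of Kcnn3, fell from 2.77 ± 0.47 to 0.94 ± 0.42 normalized CPM (log2FC -1.55, adjusted p = 0.00219), and antisense genes overlap 8.13% of its exon length. Lrrc52, an auxiliary subunit of large-conductance channels, fell from 20.9 ± 4.71 to 5.62 ± 1.20, and Kcnmb1, the smooth muscle beta subunit of the same channels, from 3.33 ± 0.60 to 1.91 ± 0.56 (SD, n = 4 each). Kcnmb1 no longer passed without control 3 (adjusted p = 0.0543) or without mutant mouse 1 (adjusted p = 0.0528), nor with library size alone (adjusted p = 0.0694). Kcnn1, named after its values were seen, was at 20.9 ± 0.74 and 16.7 ± 0.68, a log2FC of -0.32 (adjusted p = 0.00299) that was under the fold threshold and turned to 0.02 when 7 skeletal muscle genes set the scale. The pore Kcnma1, also named afterwards, was at 76.5 ± 6.47 and 70.3 ± 4.51 (adjusted p = 0.220). Per kilobase, Kcnn1 stood above Kcnn3 in controls, at 4.55 ± 0.16 against 1.51 ± 0.34 normalized CPM per kilobase, and the 2 overlapped in Dnm2 wt/K562E mice, at 3.64 ± 0.15 against 3.68 ± 0.74.

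The voltage-gated potassium channels and their subunits moved both ways, with 5 of 25 tested genes called higher and 6 lower. Over all tested genes 12.9% were called higher and 7.85% lower. With library size alone the list had 11 higher and 3 lower genes. The whole table then had 2865 higher and 564 lower, instead of 1806 and 1099. With the main scaling but without control 3 the higher genes of the list were 8. Kcng4, a modifier subunit that forms no channel alone, was at 25.9, 28.4, 19.6 and 23.8 normalized CPM in controls 1 to 4 and at 2.28, 2.32, 1.91 and 1.38 in Dnm2 wt/K562E mice 1 to 4. It was 12.4-fold lower, with no overlap (log2FC -3.62, SE 0.171, adjusted p = 2.81e-07, edgeR quasi-likelihood test). Kcna7, the most abundant gene of the list, fell from 172.1 ± 13.3 to 88.4 ± 8.24, and Kcnq5, a channel of the M-current family, from 19.7 ± 0.44 to 12.8 ± 1.17 (SD, n = 4 each). Kcnq5 was short of the fold threshold with library size alone (-0.41) and without mutant mouse 1 (-0.57). Kcne1l fell as well (log2FC -0.96), with Kcna5 (-0.60) and Kcne4 (-0.72) making up the 6 lower genes. Kcna5 and Kcne4 were not called with library size alone (-0.40 and -0.51). When 1 mouse was left out, Kcne4 lost the call for control 3 (-0.57), and Kcna5 for controls 2 and 3 and mutant mice 1, 2 and 3 (-0.46 to -0.60, adjusted p up to 0.0568). In the other direction, Kcnc4, a channel of fast repolarization, rose from 6.23 ± 1.99 to 18.1 ± 3.42 (SD, n = 4 each), with a log2FC of 1.54. Kcnf1, Kcnab2, Kcnh1 and Kcnip3 were also called higher, from control means under 2 normalized CPM, and the log2FC of Kcnf1 was 1.58. Kcnh1 lost the call without control 1, control 4, mutant mouse 1 or mutant mouse 4 (adjusted p up to 0.0787), and Kcnip3 without control 3 or mutant mouse 1, 2 or 3 (adjusted p up to 0.0809). Of 6 tested two-pore channels, which carry background potassium current, Kcnk2 (log2FC 1.04) and Kcnk3 (1.05) were called higher and 0 lower.

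The sodium-potassium pump restores the gradients that these channels use. Atp1b4, known as a nuclear envelope protein of muscle in placental mammals, rose from 14.1 ± 1.58 to 35.8 ± 3.43, and the pump modulator Fxyd6 from 192.7 ± 15.2 to 442.6 ± 15.1. Fxyd1, the modulator phospholemman, fell from 291.3 ± 10.5 to 191.0 ± 8.997 (log2FC -0.61, adjusted p = 1.48e-05), or -0.40 with library size alone, short of the fold threshold. Of 11 tested pump subunits and modulators, 3 were called higher and 2 lower (12.9% and 7.85% over all tested genes). The others were Fxyd5 among the higher and Fxyd7 among the lower, and Fxyd5 lost the call when any 1 of 6 mice, all but control 4 and mutant mouse 3, was left out (log2FC down to 0.55).

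The anchors that hold channels in the membrane had no called gene among 10 tested, against 12.9% higher and 7.85% lower over all tested genes. By adjusted p alone 1 was higher and 4 lower (22.2% and 21.7% over all tested genes). Ank3, the ankyrin that anchors sodium channels at folds of the end plate, had a log2FC of -0.26 (adjusted p = 0.00996), under the fold threshold, which turned to 0.08 when 7 skeletal muscle genes set the scale.

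Ratios between 2 genes within a mouse do not depend on the scaling of libraries, and 6 were compared by exact two-sided permutation tests, whose smallest p with 4 against 4 mice is 0.0286. After Benjamini-Hochberg adjustment over the 6, none of the 4 given here passed 0.05. Scn4b counts per Scn4a count were 1.78, 1.34, 1.51 and 1.32 in controls 1 to 4 and 1.71, 2.07, 2.08 and 1.85 in Dnm2 wt/K562E mice 1 to 4. Control 1 overlapped the mutant mice, and the log2 difference was 0.38 (exact permutation p = 0.0571, adjusted p = 0.114).

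The Clcn1 to Scn4a ratio differed by 0.09 on the log2 scale (exact permutation p = 0.543, adjusted p = 0.651), with SDs over mice of 0.17 in controls and 0.21 in Dnm2 wt/K562E mice. The ratio of Abcc9 to Kcnj11 did not overlap, at 7.73, 6.59, 7.30 and 5.39 in controls 1 to 4 and 4.57, 5.09, 4.33 and 4.81 in Dnm2 wt/K562E mice 1 to 4, a log2 difference of -0.51 (exact permutation p = 0.0286, adjusted p = 0.0857). In whole muscle, RNA of fibres and of vessels cannot be told apart in this ratio. Kcnj2 to Kcnj12 differed by 0.42 (exact permutation p = 0.143, adjusted p = 0.214).

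**Figure D3:**
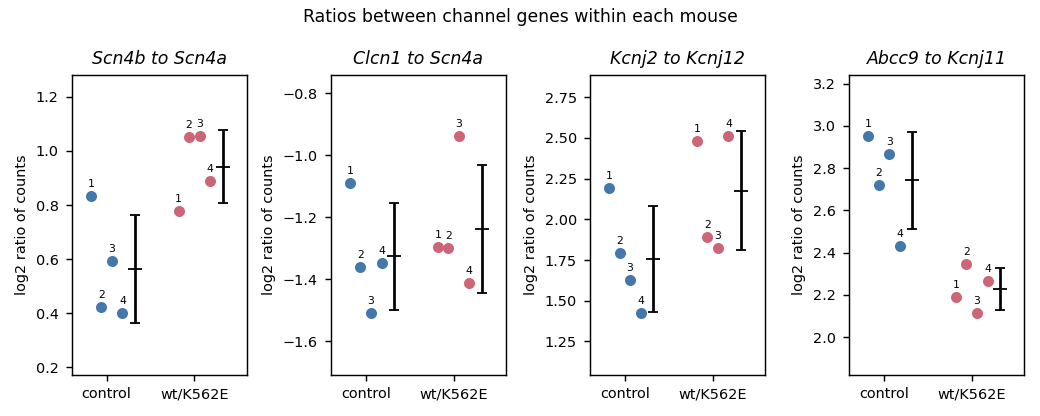
Log2 ratio of the counts of 2 genes in the same mouse, with 1 panel per ratio, 1 numbered point per mouse and a black bar for the mean ± SD of 4 mice. The axes differ between panels and do not start at 0. Among these 4, only the Abcc9 to Kcnj11 ratio shows no overlap between the genotypes.

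Genes of other cell types and of fibre state moved along with the channels, and their part in the channel differences was not tested. Of 10 genes known to rise on denervation, 9 were called higher, where the share over all tested genes was 12.9%. Hdac4 was the exception, and the median log2FC of the 10 genes was 1.68. Their summed level was 185.9, 160.2, 182.5 and 161.4 normalized CPM in controls 1 to 4 and 491.9, 407.8, 418.2 and 454.8 in Dnm2 wt/K562E mice 1 to 4. Chrna1, the most abundant, rose from 30.5 ± 2.53 to 86.6 ± 7.32, and Myog, a myogenic factor, from 6.50 ± 1.46 to 55.8 ± 10.1. Mutant mice 1 and 4 had the highest sums here and also the highest Kcnn3 levels. Among the controls the orders differed, with control 1 highest in the sum and control 3 in Kcnn3. By endplate staining, the paper detected no significant rise in fully denervated soleus fibres of the mutants. It also reported more fibres with embryonic or regenerating myosins, at low and variable levels. Whether the rise of the listed genes, or of Kcnn3, came with denervation or with regeneration was not tested.

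The muscle fibre markers show that the tissue is skeletal muscle with fast and slow fibres, none of the listed markers being at 0 in every mouse. Of 8 fast fibre genes 7 were called lower, Myh1 being the exception, and of 7 slow fibre genes 3 were called lower. Among all tested genes 7.85% were called lower and 12.9% higher. The fast fibre sum was 39794 ± 807 in controls and 24084 ± 1861 normalized CPM in Dnm2 wt/K562E mice, and the slow fibre sum 20839 ± 1595 and 12896 ± 1256 (SD, n = 4 each), with Myh2 and Myh7 the most abundant genes. Of 7 general skeletal muscle genes Ckm and Ryr1 were called lower and Des higher, and their median log2FC was -0.45, beside -0.64 for the 7 channel genes. The sum of the general genes was 51165 ± 3458 in controls and 39049 ± 2218 in Dnm2 wt/K562E mice, led by Acta1. With library size alone Myh2, Tnnc2, Tnni2, Myl2, Tnnc1 and Ryr1 were still lower but short of the fold threshold. Myl2 also fell short of it without control 3 (-0.56) or mutant mouse 4 (-0.55), and Ryr1 without mutant mouse 1 (-0.56). Myh4, the myosin of the fastest fibres and named after its values were seen, was at 426.4, 371.6, 162.8 and 3133.8 in controls 1 to 4 and at 34.9, 34.0, 45.9 and 50.9 in Dnm2 wt/K562E mice 1 to 4. Control 4 stood far above the other controls for it, and without this mouse the calls of all 7 channel genes were the same. Myh1, Myh2 and Myh4 share 42.9%, 34.5% and 30.4% of their 31-base stretches mostly with other myosins.

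All 5 macrophage genes were called higher (median log2FC 1.20), where over all tested genes 12.9% were called higher and 7.85% lower. The summed level of the macrophage genes was 49.5, 49.9, 48.6 and 89.2 normalized CPM in controls 1 to 4. It was 182.5, 142.6, 143.1 and 106.9 in Dnm2 wt/K562E mice 1 to 4, led by Csf1r. Control 4 was the highest control and mutant mouse 4 the lowest mutant, and the genotypes did not overlap. Of 5 fibroblast genes 4 were called higher (median 1.00), and their sum was 2188 ± 407 in controls and 4408 ± 480 in Dnm2 wt/K562E mice, led by Col3a1. The other, Ly6a, named after its values were seen, had a log2FC of -0.19 (adjusted p = 0.0332), under the fold threshold, and of 0.02 with library size alone. Smooth muscle and pericyte genes had 4 of 7 called lower, Myh11, Acta2, Tagln and Cnn1 (median -0.63), with a sum of 1700.5 ± 78.9 and 1316.4 ± 98.9, led by Rgs5. By adjusted p alone 5 of this list were lower and 1 was higher, where the shares over all tested genes were 21.7% and 22.2%. Endothelial genes had 1 of 5 called lower (median -0.40, sum 931.0 ± 30.0 and 706.2 ± 36.8, led by Cdh5). With library size alone Myh11, Tagln, Cnn1 and the endothelial Kdr lost their calls. So did Myh11 without control 2 (-0.57), Cnn1 without mutant mouse 3 (-0.55) and Kdr without mutant mouse 2 (-0.577). Of the channel genes named above, Kcnj8 (log2FC -0.43) and Kcnmb1 (-0.80) were lower as well. Kcnma1, the pore that Kcnmb1 joins, did not pass (-0.12, adjusted p = 0.220). A link of these genes to the vessel markers was not tested.

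Satellite cell genes had Pax7 and Myf5 called lower among 4 tested (median -1.10), with sums of 42.7 ± 1.71 and 34.0 ± 2.13 led by Cdh15. The shares over all tested genes were 7.85% lower and 12.9% higher. Of 5 Schwann cell genes 0 were called (median -0.01), and their sum was 118.6 ± 6.57 in controls and 105.65 ± 7.75 in Dnm2 wt/K562E mice. It was led by Mbp, a myelin protein, which had a log2FC of -0.24 (adjusted p = 0.0141), under the fold threshold, and of 0.11 when 7 skeletal muscle genes set the scale. Of 3 tested cardiac genes 0 were called, with a summed level of 59.4 ± 2.20 and 49.3 ± 5.25. The most abundant of them, Myh6, had a log2FC of -0.27, which turned to 0.07 when 7 skeletal muscle genes set the scale, and it shares 29.2% of its 31-base stretches mostly with Myh7.

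**Figure D4:**
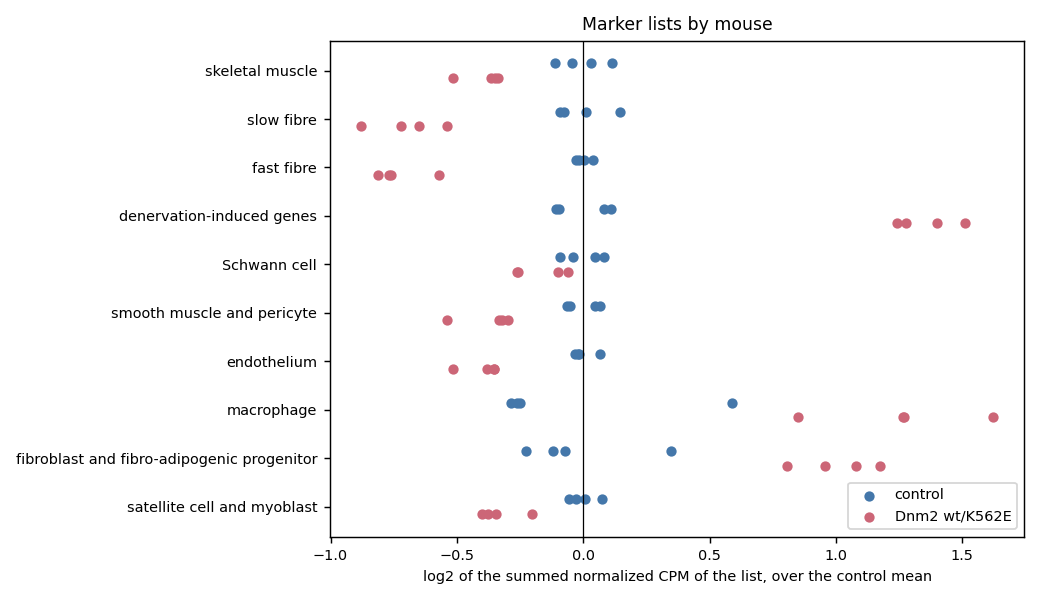
Summed normalized CPM of each marker list in each mouse, as log2 over the mean of the 4 controls, with blue points for controls and red points for Dnm2 wt/K562E mice. The denervation, macrophage and fibroblast lists lie to the right of the controls in every mutant mouse, the Schwann cell list overlaps, and all other lists lie to the left.

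Across all 8 mice the genes most alike in pattern to Scn4a were Trip10, Acadsb and Slc2a4, with Pearson r of log2 CPM of 0.998, 0.997 and 0.997. For Scn4b they were Mlycd, Arhgap19 and BC025920 (r = 0.994, 0.994 and 0.993), for Clcn1 Maip1, Mrps36 and Ing4 (0.992, 0.992 and 0.991), and for Kcnj12 Creg1, Tuba8 and BC048679 (0.994, 0.990 and 0.989). Akip1, Klrd1 and Runx3 were most like Kcnn3 (0.993, 0.987 and 0.985). Within a mouse all genes share 1 depth and 1 scaling factor, and these values include the genotype difference. The genes that did not pass had lower values, with Ciapin1, Zfp790 and Mepce for Kcnj2 (0.968, 0.948 and 0.948) and Efhd1, Ccser1 and Asb5 for Kcnj11 (0.951, 0.946 and 0.935).

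With the genotype means removed, the genes nearest to Scn4a were Myh14, Gm43809 and Klhl26, to Scn4b Tcap, Art1 and Zfp386, to Clcn1 B3gnt2, Rps6kb2 and Rnf165, and to Kcnn3 Ptdss1, Cct4 and Dph6. Those nearest to Kcnj2 were Ciapin1, Adck1 and Pex13, to Kcnj11 Snx3, Isg15 and Sqle, and to Kcnj12 D10Wsu102e, Lyl1 and Atp8b2, and all these values lay between 0.959 and 0.990 over 8 mice. Ciapin1 was the nearest gene to Kcnj2 both ways. All these genes were picked for the largest r among all tested genes over only 8 mice. That choice alone favours high values, and shared regulation was not tested. Among the 7 genes themselves, Scn4a and Clcn1 had r = 0.94 over the 8 mice and -0.31 with the genotype means removed, and Scn4a and Scn4b had 0.91 and 0.20. The pairs farthest from 0 with the genotype means removed were Scn4a with Kcnj12, at -0.93 against 0.94 over the 8 mice, and Scn4b with Kcnj11, at -0.83 against -0.18. Kcnn3 ran against the lower genes over the 8 mice, with r between -0.89 and -0.93. With the genotype means removed these values were 0.41 for Scn4a, -0.32 for Scn4b, -0.45 for Clcn1 and -0.43 for Kcnj12.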

How the data were processed

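The authors trimmed reads with Trimmomatic 0.33, aligned them to GRCm38.p5 with STAR 2.5.1b and counted them per gene with featureCounts, per the submitters' processing notes, and deposited raw counts without normalization for each of 8 mice. The labels name a stranded total RNA kit and the study's methods a poly A kit, and the use of strand in counting is not given in the sources used here. Of 22880 identifiers, 22647 were matched to GENCODE M21 (GRCm38), which gave symbols, positions and exon lengths. Counts were filtered with filterByExpr (minimum count 10, minimum total 15), scaled by TMM (factors 0.915 to 0.959 in controls, 1.04 to 1.10 in mutants) and tested with edgeR 4.0.16 in R 4.3.3 over 14001 genes, with thresholds of 0.05 on the adjusted p and 0.58 on the size of the log2 fold change, as in the study. Standard errors are those implied by the F statistic. Log2 CPM used a prior count of 2, and ratios a pseudocount of 0.5, with scipy 1.17.1 for their permutation tests. DESeq2 1.42.0, the exact test of edgeR, other scalings and filters, replicate blocks and leaving out each mouse were tried, and scaling to 7 skeletal muscle genes was added after seeing the data.

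The genes named were the 7 channels, fixed partners (Kcnj8, Abcc8, Abcc9, Kcnn2 and Ank3), up to 4 called genes per list and direction by smallest p, the most abundant gene of each marker list, and for each channel 3 genes of most alike pattern. Clcn3, Clcn4, Ostm1, Kcnn1, Kcnma1, Kcnmb2, Myh4, Hdac4, Myh1, Kcna5, Kcne4, Kcnip3, Fgf13, Celf2 and Ly6a were named after their values were seen. Members and lists were chosen with earlier results of these data known. Some genes of the lists, and ratios that need them, are not reported here. No mice of the same genotype had counts alike within sampling noise, so each mouse is 1 replicate, and precision is that of 4 mice per genotype. Tested on simulated data with 200 genes changed by 1 on the log2 scale in 4 against 4 mice, the fit recovered 83.3% of the 198 changed genes among 13997 tested, and 3 of its 168 calls were false. The real table had many more, with 3103 genes higher and 3036 lower by adjusted p alone. The share of false calls at such numbers, or among calls that depend on the scaling of libraries, was not tested.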

Additional observations from a re-analysis of the deposited data

Results flagged for a closer look

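In 12 of 178 groups of 4 mice tested, 170 from 85 named genes and 8 from the 4 ratios, the highest or lowest mouse stood apart from the other 3 by more than the critical value of Dixon's test, which chance gives in about 1 in 20 groups. Clcn1 was flagged for Dnm2 wt/K562E mouse 3, at 64.02 normalized CPM, which is nearer to the controls than the other mutant mice are. Control 4 was the highest control for Myh4 at 3134 normalized CPM, for the macrophage gene Csf1r at 49.61 and for Fxyd5 at 26.11, and the lowest for Kcnk2 at 5.653. Control 1 was the lowest for Atp1b4 at 11.71, control 2 the lowest for Kcnq5 at 19.01 and control 3 the highest for Kcne1l at 4.614 and for Kcne4 at 7.861. Dnm2 wt/K562E mouse 4 was the lowest for Kcnab2 at 2.324 and the highest for Des at 6034 normalized CPM. Dnm2 wt/K562E mouse 2 was the highest for the fibroblast gene Ly6a at 99.5.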

How the results depend on the processing

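The calls of Scn4a, Clcn1 and Kcnn3, and the absence of a call for Kcnj2, were the same under all 17 alternatives. Library size alone moved the median log2 fold change of all tested genes to 0.22 and scaling to 7 skeletal muscle genes, chosen after seeing the data, to 0.35, against 0.0074. With these 2 scalings Scn4b had -0.43 and -0.30 and Kcnj12 -0.54 and -0.41, short of the fold threshold, and Kcnj11 turned to 0.15 and 0.28 without passing. Over the whole table these scalings gave 2865 and 3859 higher and 564 and 377 lower genes, against 1806 and 1099, and over the other channel lists 25 and 29 higher and 7 and 6 lower, against 14 and 12. Without a fold threshold the numbers were 3103 higher and 3036 lower over the table, and 22 lower over the lists. Leaving out each mouse gave Scn4b between -0.71 and -0.54 and Kcnj11 between -0.15 and 0.0131. Scn4b lost its call without control 1.

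Of the other named genes and lists, 15 single results lost their call with library size alone and 17 with the muscle genes, and Ostm1 and Kcnmb2 gained one under both and Celf2 with the muscle genes. Among single genes, Clcn4 (0.0143 and 0.15), Kcnma1 (0.0894 and 0.23), Fgf13 (0.1784 and 0.3149), Hdac4 (0.1526 and 0.2936), Myh1 (0.0831 and 0.2152) and Ly6a (0.019 and 0.1516) turned direction under both scalings. With the muscle genes alone, Mbp (0.1099), Ank3 (0.0825), Myh6 (0.0669) and Kcnn1 (0.0219) turned. Leaving out each mouse gave Hdac4 between -0.1417 and 0.0634 and Fgf13 between -0.088 and 0.0229. The causes were not tested beyond the change of scale itself.

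Mice of the same number are different animals, and after removal of the genotype means their values correlated at a mean of -0.114 by the numbers in the titles and -0.0302 by those in the descriptions. With the replicate block of the titles the table gave 1637 higher and 1036 lower genes and Scn4a -1.01 (adjusted p = 7.63e-05), and neither block changed a call among the 7 genes. With the block of the titles Kcnh1, Kcnip3 and Fxyd7 were not called (adjusted p = 0.0763, 0.0792 and 0.0504), the voltage-gated potassium channels had 3 higher genes instead of 5, the pump had 1 lower gene instead of 2, and Kcnj2 had an adjusted p of 0.0354 below the fold threshold. With that of the descriptions Kcnip3 was not called (0.0733) and Kcnmb2 was (0.0333). For the ratios, the sign-flip test over 4 pairs cannot reach 0.05. Depth limits the genes near 1 normalized CPM, such as Kcnf1 and Kcnh1, and the 28 listed genes that were not tested.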
